A study of Rattus norvegicus with 5 samples.

Results

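Annotated features shorter than 200 bp were examined in the microglial transcriptome of rat offspring. They were chosen by name and length alone. A feature was included when it carried a rat Ensembl identifier, had at least 1 count in at least 1 library, and had a length under 200 bp, the length being recovered from the ratio of the read counts to the FPKM values. FPKM are counts divided by the feature length and by the total of the library. There were 1021 such features, which is 5.51% of the 18546 annotated features with a count and part of the 35495 features listed in all.

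The libraries came from microglia, the resident immune cells of the brain, of Sprague Dawley male offspring. By Cd11b staining, the study reports that most but not all of the isolated cells were microglia. In the control group (2 libraries, control 1 and control 3), the dams received the control vehicle adenovirus through the tail vein during gestation. In the CYP11A1 group (3 libraries, CYP11A1 1, 2 and 3), the dams received, by the same route, an adenovirus with the human CYP11A1 cDNA behind a CMV promoter. CYP11A1 encodes the enzyme that starts steroid synthesis from cholesterol. Both viruses also carried a green fluorescent protein, and the offspring themselves were not treated. In bulk RNA of this kind, fewer cells of a type and less RNA per cell cannot be told apart. The labels give an age of 3 months, the methods of the study give a younger age, and a further control was not analysed here. The labels do not say whether offspring of 1 group came from separate litters, so p-values measure only the spread between these libraries. The identifiers are not paired with gene symbols in the files, and the RefSeq table used here holds no Ensembl identifiers, so that none of the 1021 features could be matched to it. For this reason features are called by identifier, no sequence is shown, and the microglial label was not checked against marker genes.

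Short annotated features of a mammalian genome are mostly genes of structured RNA and copies of them. Spliceosomal small nuclear RNAs (snRNAs) remove introns from pre-mRNA. Small nucleolar RNAs (snoRNAs) guide chemical modification of ribosomal RNA, microRNA precursors give rise to regulators of mRNA, and transfer RNAs carry amino acids. Many of these RNAs lack the poly(A) tail from which the full-length cDNA kit named in the study's methods primes, whereas the labels name a kit for small RNA. In the RefSeq annotation of the rat (GRCr8), 5041 genes were shorter than 200 bp. Of these, 1534 were snoRNAs, 1054 pseudogenes, 1013 snRNAs, 766 transfer RNAs, 466 microRNAs and 153 ribosomal RNAs, and only 27 were protein coding. These counts describe the annotation and assign no class to a feature of the files.

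Short features took a small share of the reads in every library. They held 0.146% of the counts in control 1 (95% Wilson interval 0.144% to 0.148%) and 0.256% in control 3 (0.252% to 0.259%). The CYP11A1 group gave 0.281% (0.278% to 0.285%), 0.296% (0.293% to 0.299%) and 0.173% (0.171% to 0.176%) for CYP11A1 1, 2 and 3. The groups overlapped, because CYP11A1 3 lay between the controls. The mean share was 0.201% ± 0.0773 (SD, n = 2) in the control group and 0.250% ± 0.0669 (SD, n = 3) in the CYP11A1 group. On the log2 scale the CYP11A1 group was higher by 0.33, and this difference became -0.07 without control 1 and 0.73 without control 3. The intervals cover counting error only. The reads carry no molecular identifiers, so amplified copies are counted as separate reads, and the intervals may be too narrow even for that error. The library totals ran from 9623896 to 13624545 counts.

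The number of short features detected differed widely between libraries of the same group. At least 1 count was seen for 237 features in control 1 and 376 in control 3. CYP11A1 1, 2 and 3 gave 519, 615 and 238 features. CYP11A1 3 was thus close to control 1, and the group means of 306.5 ± 98.3 (SD, n = 2) and 457 ± 196 (SD, n = 3) differed by less than the larger SD. With all libraries thinned to the smallest total, the numbers were 226, 376, 491, 598 and 228 in the same order. Of the longer annotated features, 57.3% and 71.9% were detected in the controls and 76.4%, 81.3% and 51.5% in CYP11A1 1, 2 and 3. CYP11A1 2 was the highest and control 1 and CYP11A1 3 the lowest for both kinds of feature, with control 1 lowest for the short ones and CYP11A1 3 for the longer ones.

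**Figure D1:**
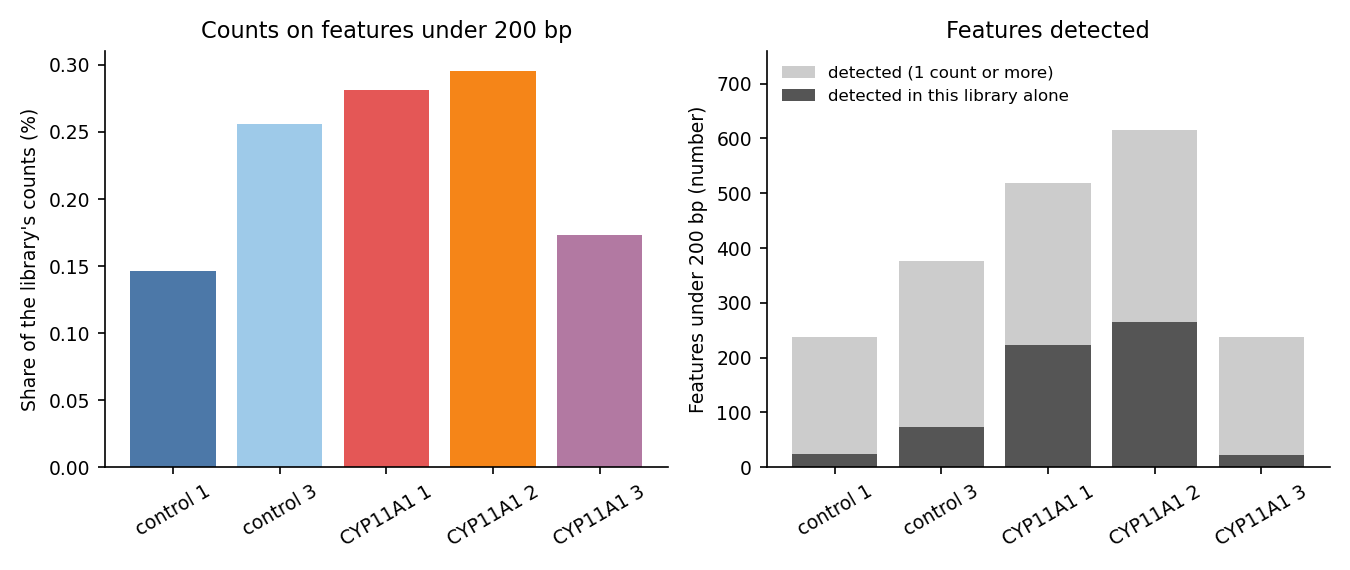
Share of each library's counts on features under 200 bp (left, percent) and the number of such features detected (right), with those detected in that library alone in dark grey. Control 1 and CYP11A1 3 hold the lowest shares (0.146% and 0.173%) and the fewest features (237 and 238), and the bars have no error because each is 1 library.

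Most short features were seen in a single library and with few counts. Of the 1021, 608 (59.5%) were counted in 1 library, 159 in 2, 74 in 3, 63 in 4 and 117 (11.5%) in all 5. The 117 held 93.7% of the counts on short features, and the 608 held 1.55%. A total of 234 features rested on 1 read and 484 on at most 3 reads, so that for these the absence from another library was not detectable at this depth. Of the 608, 265 were seen only in CYP11A1 2 and 223 only in CYP11A1 1, which is 80.3% together, against 73.9% of the 3305 longer annotated features counted in 1 library. Control 3 held 73 alone, control 1 held 24 and CYP11A1 3 held 23.

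Detection differed between length classes. In the next class, 200 to 299 bp, 42.7% of 358 features were seen in 1 library and 25.4% in all 5. In features of 1000 bp and over, the shares were 15.2% and 38.5% of 13845. The short features therefore had the highest share of single-library detection and the lowest share of detection in all libraries among the length classes compared, a description without a test. A few short features were nevertheless well counted in 1 library and absent elsewhere. Among the 320 with at least 10 counts in total, 38 had all their counts in 1 library, of which 20 were in CYP11A1 2 and 7 in CYP11A1 3. The largest was ENSRNOG00000045552, 67 bp long, with 58 counts in CYP11A1 2 and 0 in each of the other libraries. It was picked after its values were seen.

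The counts were concentrated on few features. The most counted feature held 20.4% of all counts on short features, the first 5 held 53.2% and the first 15 held 77.8%, and each of the 15 was detected in all libraries. Levels between features are compared here by FPKM, which are per length.

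ENSRNOG00000020296, 177 bp long, had the highest level. It had 1659 and 3148 FPKM in control 1 and control 3, and 3387, 3443 and 1734 FPKM in CYP11A1 1, 2 and 3. Control 1 and CYP11A1 3 were low and the other 3 libraries were high, so that the groups overlapped. In the fit over all features its log2 fold change was 0.44 with a standard error of 0.74. The next, ENSRNOG00000056054 (136 bp), had 786 and 1514 FPKM in the controls and 1896, 2793 and 839 in the CYP11A1 libraries. CYP11A1 3 again fell between the controls. Its log2 fold change was 0.80 with a standard error of 0.78, so that both differences were about as large as their errors or smaller. This feature held 11788 of the counts on the 16 features of 136 bp, a length at which 32 of the 40 RefSeq genes are snoRNAs. Other well-counted lengths differed. At 177 bp, which held 20.5% of the counts on short features, 4 of the 5 RefSeq genes are pseudogenes and 1 is protein coding. At 195 bp (13.2%), 3 of the 7 are pseudogenes, 2 snRNAs, 1 a snoRNA and 1 protein coding. At 183 bp (6.03%), 2 of the 5 are snRNAs and 2 protein coding. The class of the features themselves was not tested.

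ENSRNOG00000029145, only 68 bp long, ranked 3 by FPKM and 6 by CPM, the normalized count that ignores length. It had 1110 and 1795 FPKM in the controls and 2464, 1230 and 554 in CYP11A1 1, 2 and 3, so that the lowest and the highest library were both in the CYP11A1 group. ENSRNOG00000055023 (141 bp) had 1248 and 1251 FPKM in the controls and 1795, 1389 and 1215 in the CYP11A1 libraries. ENSRNOG00000025388 (195 bp) had 844 and 1237 in the controls and 1443, 1141 and 1078 in the CYP11A1 libraries. For both features the highest library was CYP11A1 1, and the others overlapped between the groups. ENSRNOG00000049105, 75 bp long, was among the most even, with 668 and 765 FPKM in the controls and 848, 875 and 858 in the CYP11A1 libraries. In ENSRNOG00000031802 (183 bp), the FPKM were 641 and 697 in the controls and 686, 666 and 506 in the CYP11A1 libraries. The remaining 8 of the 15 most counted had lengths of 141 to 195 bp. They included 4 of 191 bp and ENSRNOG00000050729 (192 bp), which had 157 and 345 FPKM in the controls and 174, 191 and 393 in the CYP11A1 libraries, with its highest level in CYP11A1 3. Some neighbours in this order had mean FPKM closer than their spread over the libraries, such as ENSRNOG00000029145 (1431) and ENSRNOG00000055023 (1380). Others did not. The means were 1149 for ENSRNOG00000025388 and 803 for ENSRNOG00000049105, and the latter ranged only from 668 to 875.

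**Figure D2:**
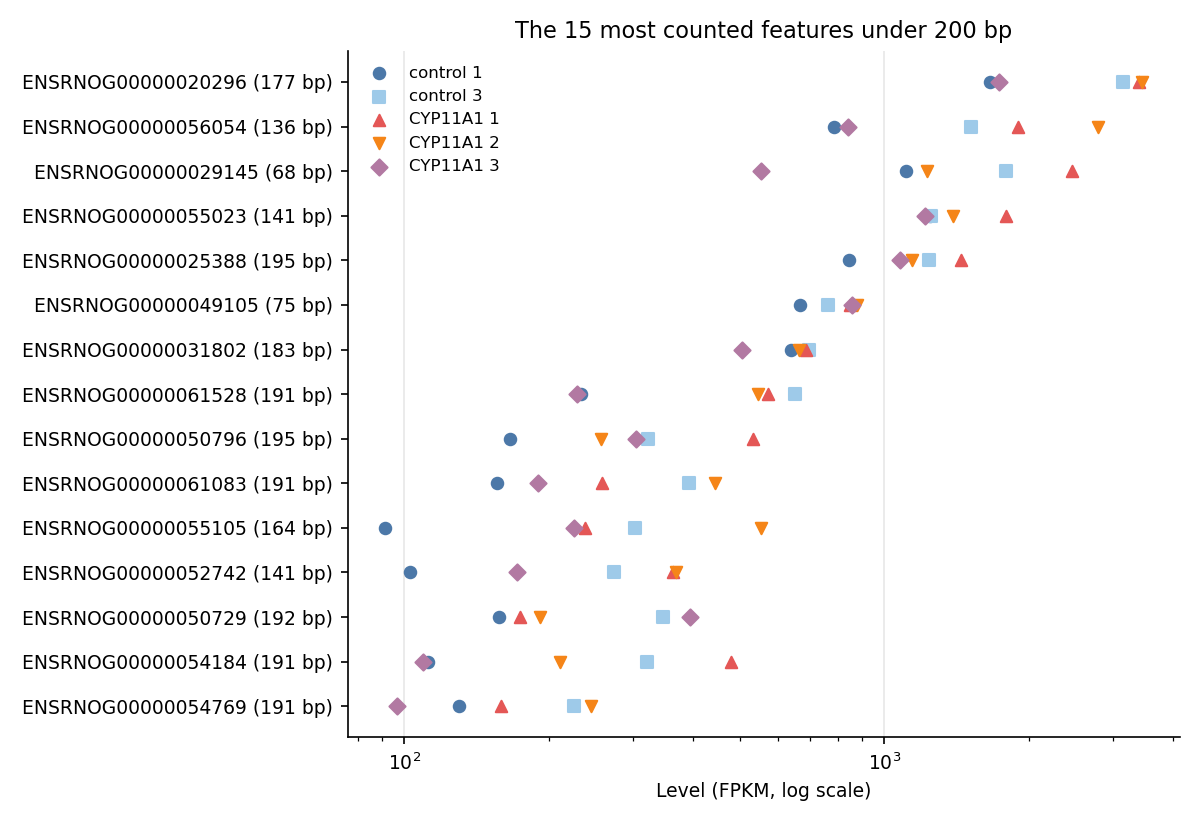
Level of the 15 most counted features under 200 bp in each library (FPKM, logarithmic axis), ordered by mean FPKM, with each library as a marker of its own. Control 1 and CYP11A1 3 often sit at the low end of a row, and the highest row, ENSRNOG00000020296, runs from 1659 to 3443 FPKM.

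Which library was highest depended on the scaling. After TMM normalization, edgeR's correction for library composition, CYP11A1 1 was the highest library for 13 of the 15 features, and its factor of 0.615 was the lowest of the 5. With the library total alone, CYP11A1 1 was highest for 5 and CYP11A1 2 for 7. After TMM normalization none of the 15 had all CYP11A1 libraries on 1 side of both controls. Over all features tested, 6.49% had them above and 7.91% below. With the library total alone 1 of the 15 had, ENSRNOG00000049105, with the CYP11A1 libraries higher. The share over all features is not given for that scaling, so neither count is a result about the 15. Over the 117 features detected in every library, the highest library exceeded the lowest by a median of 5.68-fold in CPM, from 1.38-fold for ENSRNOG00000043400 to 50.5-fold. Across these 117 features, Spearman's rho was 0.81 between the controls, 0.76 to 0.86 between CYP11A1 libraries and 0.75 to 0.88 between a control and a CYP11A1 library, with the highest value for control 3 and CYP11A1 2.

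The lengths ran from 49 to 198 bp with a median of 112 bp, and many features had exactly the same length. A total of 41 lengths were shared by 10 or more features each, and 594 features (58.2%) had one of them. At the limit, the 2 features of 198 bp had 1 and 2 counts in total, while the most counted of the 4 features of 201 bp, the next length above it, had 762 to 1185 counts per library. By length, the 167 features of 150 bp and over held 62.1% of the counts, and 34.7% of them were detected in all libraries. In the shorter bins the share detected in all libraries was 10.8% at 49 to 79 bp, 4.66% at 80 to 99 bp, 5.31% at 100 to 119 bp and 8.04% at 120 to 149 bp. It was thus not ordered by length below 150 bp.

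**Figure D3:**
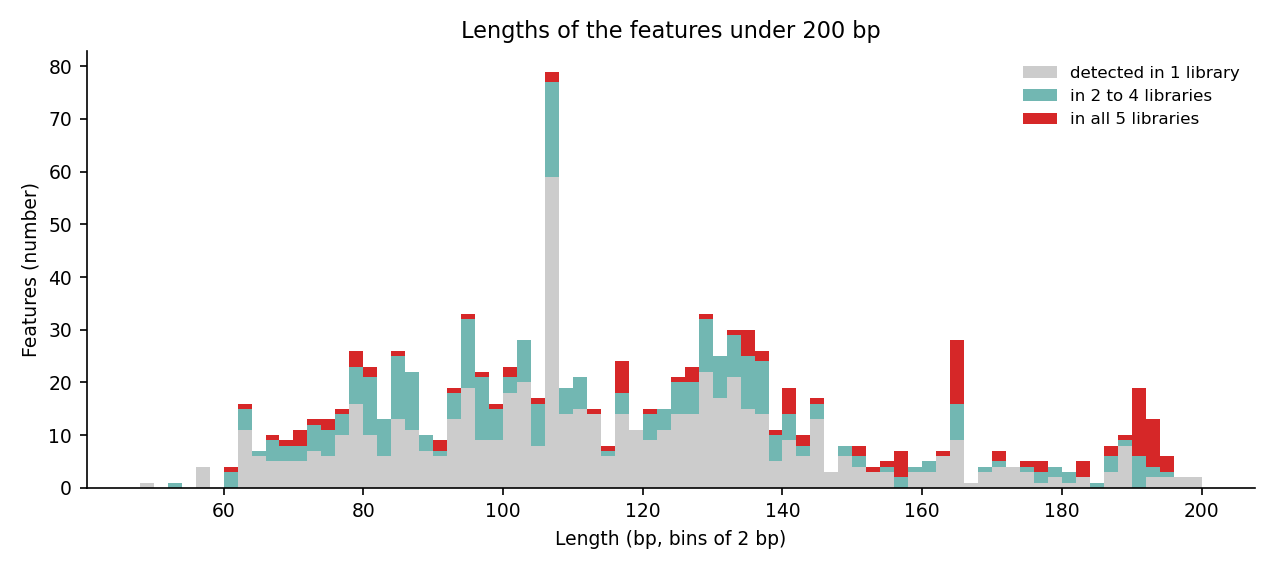
Number of features under 200 bp by length (bp, bins of 2 bp), coloured by the number of libraries in which each was detected. The tallest bar holds the 59 features of 107 bp together with the 20 of 106 bp, mostly seen in 1 library, and detection in all 5 libraries is frequent near 164 bp and 191 bp.

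Features of 107 bp were the most numerous, and most were seen in 1 library. Of the 59, 45 (76.3%) were seen in 1 library and 2 in all 5, and together they held 0.432% of the counts on short features. Their summed counts were 37 and 113 in the controls and 164, 203 and 43 in CYP11A1 1, 2 and 3, so that control 1 and CYP11A1 3 were the lowest. In the RefSeq annotation, 373 of the 383 genes of this length are snRNAs. Whether the features of the files are among them was not tested.

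Features of 191 bp were few and widely detected. All 17 were seen in at least 2 libraries and 12 in all 5, and they held 10.9% of the counts on short features. Their summed counts were 1898 and 3286 in the controls and 3439, 3604 and 1926 in the CYP11A1 libraries. The pattern over the libraries was again low in control 1 and CYP11A1 3. The totals of single features ran from 3 to 4688, the largest being ENSRNOG00000061528, with 233 and 653 FPKM in the controls and 573, 546 and 229 in the CYP11A1 libraries. In RefSeq, 21 of the 24 genes of 191 bp are snRNAs and 3 are pseudogenes.

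The 21 features of 164 bp included 9 seen in all libraries and held 3.54% of the counts. Their share of the counts on short features was 2.12% and 3.11% in the controls and 3.44%, 4.76% and 3.71% in the CYP11A1 libraries. This was the single length among the 5 plotted at which every CYP11A1 library lay above both controls by share, and it was picked out after the values were seen. The same order also occurred at lengths not plotted, among them 97, 101 and 110 bp, where it held by summed CPM too. The reverse order, with every CYP11A1 library below both controls by share, occurred as well, among them at 79, 90, 96 and 138 bp. At 96 bp the reverse order held by summed CPM too. How many lengths showed either order was not counted, so neither order is a result about a length. By summed CPM the groups overlapped at 164 bp, with 32.1 and 74.96 in the controls and 158, 104 and 54.9 in the CYP11A1 libraries. The most counted was ENSRNOG00000055105, with 91.3 and 302 FPKM in the controls and 238, 554 and 225 in the CYP11A1 libraries. In RefSeq, 33 of the 38 genes of 164 bp are snRNAs.

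The 11 features of 192 bp held 4.76% and 4.0% of the counts on short features in the controls, 2.46% in CYP11A1 1, 2.79% in CYP11A1 2 and 7.34% in CYP11A1 3. The highest share and the lowest were thus both in the CYP11A1 group. By summed CPM the order was another, with 72.001 and 96.3 in the controls and 113, 60.9 and 109 in CYP11A1 1, 2 and 3, so that CYP11A1 1 was lowest by share and highest by CPM. In RefSeq, 11 of the 13 genes of this length are pseudogenes. The 11 features of 116 bp had 0.597% and 2.13% in the controls and 1.56%, 2.96% and 1.69% in the CYP11A1 libraries, and 6 of them were detected in all libraries.

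**Figure D4:**
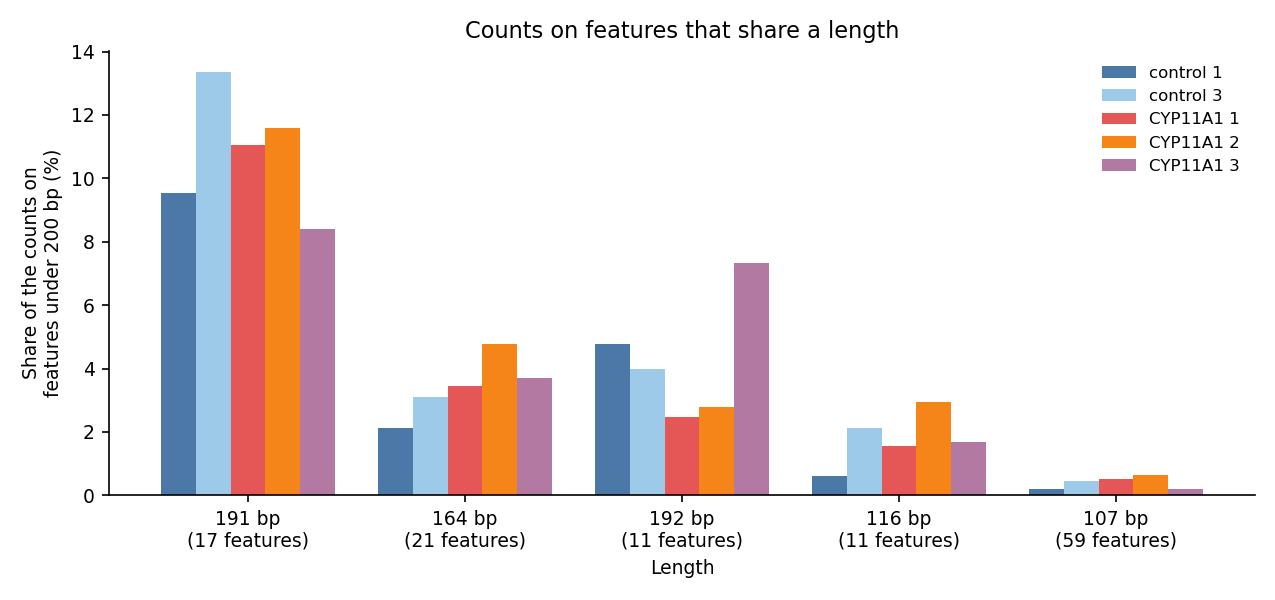
Share of the counts on features under 200 bp (percent) held by features of exactly 191, 164, 192, 116 or 107 bp, as 1 bar per library. Features of 191 bp hold between 8.39% and 13.4%, and those of 192 bp reach their highest share (7.34%) in CYP11A1 3, where those of 191 bp reach their lowest.

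The comparison between offspring of CYP11A1-overexpressing and control dams was fitted over all features, and no short feature passed it. The filter on low counts kept 135 of the 1021 (13.2%). By edgeR's quasi-likelihood test with adjustment over all features, 0 of the 135 passed an adjusted p of 0.05, as did 0% of the 10346 features fitted, and the smallest adjusted p of a short feature was 0.9998. DESeq2 also called 0 short features, against 0.0569% of all features, and limma on log2(FPKM + 1) called 0, against 0%. DESeq2 gave no adjusted p to short features with low mean counts, so those could not be called. Its 0.0569% is over all 21072 features with a count. Without adjustment, edgeR gave 3 of the 135 (2.22%) a p under 0.05, against 4.26% of all features. DESeq2 gave 10 of 1021 (0.979%), against 2.89% of all features, and limma 31 of 353 (8.78%), against 3.57%. The share was thus below the background in edgeR and DESeq2 and above it in limma, and without CYP11A1 3 it was above it in edgeR too (6 of 121, 4.96%, against 3.78%). The DESeq2 share is over all 1021, of which 484 had at most 3 counts, too few to leave room for a low p. The median total was 4 counts, against 43 for features of 1000 bp and over, so the lower DESeq2 share is no result about short features. Of the 31 in limma, 17 had no count in 1 of the groups and so passed its filter through the other group alone, so that this share gives no support to a change.

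Fold changes leaned upward in the tested short features. The log2 fold change was above 0 in 97 of 135 (71.9%), against 56.5% of all features tested. Its median was 0.37, against 0.15 for all features, and its quartiles were -0.05 and 1.06. Setting the 3 features with a group at 0 to their bound left the median at 0.37. The median standard error of a fold change was 1.22, larger than the upper quartile. The median became 0.06, against 0.04 for all features, without CYP11A1 1, and 1.87 against 0.69 without control 3. With no filter, over all 1021, it was 1.87 against 0.42 in edgeR and 0.96 against 0.44 in DESeq2. Of the 1021, 575 had no count in either control and 104 none in any CYP11A1 library. The fitted value of such a feature depends on the tool's handling of zeros and is no measure of its change. The 2 numbers compare 2 controls with 3 CYP11A1 libraries. The shares over all features are not given here, so the numbers are no result about short features. Every CYP11A1 library was above both controls for 12 of the 135 (8.89%), against 6.49% of all features. Every CYP11A1 library was below both controls for 4 (2.96%), against 7.91% of all features, and for the other 119 the groups overlapped. Features pass the filter partly through the group where they are high, so these counts describe the tested features and give no support to a change.

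The 3 features with an unadjusted p under 0.05 had few counts. ENSRNOG00000057799 (138 bp) had 33 and 21 counts in the controls and 0, 1 and 1 in the CYP11A1 libraries. The pooled ratio of control to CYP11A1 counts was 42.1 (95% counting interval 11.1 to 357), and the log2 fold change was -5.15 with a standard error of 1.69 (edgeR's quasi-likelihood test, adjusted p = 0.9998). ENSRNOG00000056989, also 138 bp long, had 26 and 18 counts in the controls and 2, 1 and 4 in the CYP11A1 libraries. Its CPM was 1.87 ± 0.15 (SD, n = 2) in the control group and 0.21 ± 0.12 (SD, n = 3) in the CYP11A1 group, a log2 fold change of -3.21 with a standard error of 1.28 (adjusted p = 0.9998 in edgeR's test). For both features the groups did not overlap, and both had the same length as 6 other short features, of which 2 were tested.

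ENSRNOG00000055725, 97 bp long, had 0 counts in either control and 12, 10 and 18 counts in CYP11A1 1, 2 and 3. Its CPM in the CYP11A1 group was 1.21 ± 0.53 (SD, n = 3), at least 4.65-fold higher than the floor of 3 counts per control library (edgeR's quasi-likelihood test, adjusted p = 0.9998). It was 1 of 10 short features (0.979%) counted in all CYP11A1 libraries and in no control, against 1.01% of all features with a count. Another 7 (0.686%) were counted in both controls and in no CYP11A1 library, against 0.707% of all. Both shares were near the background. The other 9 had between 1 and 34 counts in each CYP11A1 library, and the 7 had between 1 and 13 in each control.

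**Figure D5:**
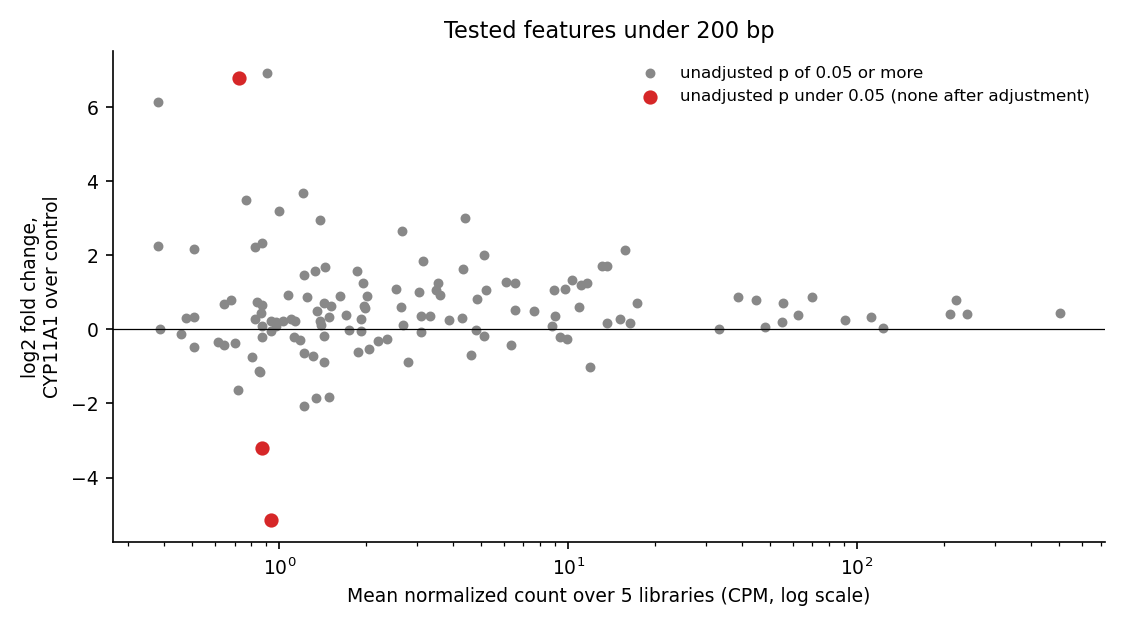
log2 fold change of the 135 tested features under 200 bp against the mean normalized count over 5 libraries (CPM, logarithmic axis), with the 3 features of unadjusted p under 0.05 in red. The widest fold changes sit at the low end of the axis, and the 15 most counted features, at 33.2 CPM and over, have log2 fold changes of 0.88 or less.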

How the data were processed

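RNA of microglia from 2 control and 3 CYP11A1 offspring was sequenced. Groups came from the treatment labels, and each column was matched to its sample by title. The authors deposited raw read counts per feature and FPKM. The submitters' processing notes name HISAT2 2.0.4 and HTSeq 0.9.1, and the genome build, annotation and counting options are not given in the sources used here. The deposited FPKM are counts divided by length and library total, and the length recovered from them agreed between libraries for all 413 short features counted in at least 2. How reads on several genes, near-identical copies or overlapping genes were counted is not known, so features of that kind are uncertain.

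Counts were tested over all features with edgeR's quasi-likelihood test after TMM normalization and filterByExpr (minimum count 10), with Benjamini-Hochberg adjustment and a threshold of 0.05. The standard error is the log2 fold change divided by the square root of the F statistic. The share of counts and the number detected were compared by values alone, although a permutation test had been planned, because 5 libraries allow no p under 0.1. CPM are counts scaled by library total and TMM factor. Software was R 4.3.3, edgeR 4.0.16, limma 3.58.1, DESeq2 1.42.0, Python 3.11.15 and matplotlib 3.10.9.

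The short features, the lists and the alternatives were chosen with earlier results of these data known. Features named are the 15 with the highest mean CPM, up to 20 detected in all libraries with the highest lowest CPM, up to 10 with an unadjusted p under 0.05, the ends of the length limit and, where said, features picked after their values were seen. Planned classes by gene type, lists of microRNAs and host genes, and cell type markers were not analysed here, since no table used here pairs the identifiers with symbols.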

Additional observations from a re-analysis of the deposited data

How the results depend on the processing

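No short feature passed an adjusted p of 0.05 in any of the 18 alternative fits or limits, although DESeq2 called 12 and edgeR with no filter called 10 of all features. Short features at an unadjusted p under 0.05 numbered 3 in edgeR's test, 10 with DESeq2 (0.979% of those tested, against 2.89% of all features), 6 with no filter on low counts (0.588% against 3.62%) and 1 with at least 10 counts in every library (1.89% against 3.43%). With limma on log2 FPKM they numbered 31 (pseudocount 1, 8.78% against 3.57%), 30 (0.1, 8.5% against 3.17%) and 30 (1 with no filter, 2.94% against 1.60%). Leaving out a CYP11A1 library gave 3 without CYP11A1 1 (2.27% against 3.69%) and 2 without CYP11A1 2 (1.75% against 4.53%). It gave 6 without CYP11A1 3 (4.96% against 3.78%, above the background). Fits without a control left a lone control, assumed to vary like the other libraries, so their unadjusted numbers are not given. With the replicate block on the libraries numbered 1 and 3 the number was 0 of 114, against 1.14% of all features. Same-numbered libraries did not deviate together over all features tested (r = -0.27). The crossed pairing, added after seeing this, gave 0 adjusted and 1 unadjusted (0.877% against 4.0%). The cause of these differences was not tested. The remaining settings (RLE factors, library size alone, legacy test and features under 150 bp) kept the number within 1.5 times. A fit without both control 1 and CYP11A1 3, added after seeing the data, also left a lone control. The log2 difference in share of counts lay between -0.07 (without control 1) and 0.73 (without control 3), and the difference in number detected between 68.2 (at least 3 counts) and 260.5 (without CYP11A1 3), with 151 reported. Of the 1021 features, 484 had at most 3 counts in total, which holds down the shares with DESeq2 and with no filter, both taken over all 1021.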

Other observations

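The number of short features that entered a test differed between the filter on FPKM and the filter on counts, which differ in unit, rule and threshold. A single read on a feature of 100 bp equals 0.734 to 1.04 FPKM in these libraries, against 0.0367 to 0.052 FPKM for a feature of 2000 bp. A minimum of 1 FPKM in 2 libraries kept 353 short features, where the filter on counts kept 135, although it kept fewer features in all (8285 against 10346). In limma on log2(FPKM + 1), 31 of the 353 (8.78%) had an unadjusted p under 0.05, against 3.57% of all features in that fit, and none passed the adjustment. Of the 31, 21 were higher and 10 lower in the CYP11A1 group, 12 had no count in either control, 5 had no count in any CYP11A1 library, and 15 had under 30 counts in total. Features with no count in a group passed the filter through the other group alone, so that the share of 8.78% gives no support to a change. The 3 that edgeR gave an unadjusted p under 0.05 were among them. By FPKM, 2 to 6 short features were among the 100 highest of each library. By counts, 1 was among the 100 highest in CYP11A1 1 and none was in the other libraries.

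Among short features with at least 5 counts, there were 4 cases in which a pair of the same length (77, 92, 107 and again 107 bp) had identical counts in all libraries, each time with all counts in CYP11A1 2 (10, 6, 5 and 8 counts per feature). Whether such pairs are copies of each other was not tested. Of the features with names other than Ensembl identifiers, 2 were under 200 bp and were not included above. Novel00156 (190 bp) had 35 and 29 counts in the controls and 15, 34 and 42 in the CYP11A1 libraries.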
